A study of Mus musculus with 12 samples.

Results

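Mouse small intestinal organoids given RANKL together with CSRM617 were compared with organoids kept in ENR medium, over 3 RNA-seq libraries of each kind, which are 6 of the 12 libraries of the series. The 6 libraries were chosen by their labels alone, and no expression value entered the choice. All cultures came from a female mouse with 1 Lgr5 copy that carries GFP and the diphtheria toxin receptor (Lgr5GFPDTR/+) and were embedded in 90% basement membrane extract. The RANKL+CSRM617 organoids first had 3 days of 3 µM CHIR99021, which turns on the Wnt pathway by blocking GSK3, and 1.5 mM valproic acid, which blocks histone deacetylases. After 1 day in ENR medium (EGF, Noggin and R-spondin) they had 6 days of 100 ng/mL RANKL with 40 µM CSRM617 hydrochloride, a small molecule known as an ONECUT2 inhibitor. The ENR control libraries were taken at day 6 of growth in ENR medium, with neither RANKL nor CSRM617. Their names in the count table begin with CVENR, a prefix that no label spells out, and the sources used here do not say whether they also had CHIR99021 and valproic acid. The 3 replicates of a group are independent differentiation experiments on organoids of this 1 mouse line, so p-values measure the spread between cultures, not between animals.

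M cells are epithelial cells over lymphoid follicles of the gut that carry particles and microbes from the lumen to immune cells below. RANKL binds its receptor RANK on epithelial cells, and RANK signals through the classical NF-kB arm and the slower arm in which NFKB2 is processed and pairs with RELB. Downstream, the transcription factors SPIB and SOX8 drive the M cell programme, of which the uptake receptor GP2 is a late product. The comparison asks how much of that programme was present when RANKL came with the inhibitor, measured from unstimulated organoids.

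The 2 groups were counted in different tables, and every table A library here is an ENR control while every table B library is RANKL+CSRM617, so table and treatment cannot be told apart within the 6 libraries. Table A also holds 3 RANKL libraries and table B 3 libraries called RANKL II, which had the same RANKL treatment by their labels. A fit over all 12 libraries treated RANKL and RANKL II as 1 treatment and took the difference between them as the difference between tables. Each log2 fold change below is from the 6 libraries unless it is called table-adjusted, which means from that 12-library fit. A gene was called when its edgeR adjusted p was under 0.05 and its fold change at least 4, and "rose" or "fell" is used of called genes only. Levels are in CPM, counts scaled to the size of each library, set over the 12 libraries together. Total counts ran from 5795541 to 7577492 in ENR control and from 10225102 to 14041947 in RANKL+CSRM617. Ribosomal RNA loci took 21.87% to 35.52% of the counts in ENR control and 15.27% to 15.77% in RANKL+CSRM617, and their part in the differences below was not tested beyond the fit that left them out.

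Of 13655 genes tested, 812 rose (5.95%) and 497 fell (3.64%) in RANKL+CSRM617. Of 14476 genes in the table-adjusted fit, 851 were called higher (5.88%) and 241 lower (1.66%). In both fits, 631 of 13622 genes were called higher (4.63%) and 163 lower (1.2%). The counts of called genes in each list below are to be read beside these shares. The same 4-fold rule called 71 genes higher (0.506%) and 130 lower (0.926%) of 14040 in RANKL II against RANKL, libraries with the same labelled treatment. The median log2 fold change over all genes was -0.01, and 0.03 after table adjustment. In bulk RNA, fewer cells of a type and less RNA per cell cannot be told apart.

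Of 5 M cell transcription factors, 4 rose in RANKL+CSRM617, led by Spib and Sox8. Spib (chr7:44525993-44532071, GRCm38, minus strand), the ETS factor required for M cell maturation, was at 3.23, 6.46 and 3.40 CPM in the 3 ENR control libraries and at 303.2, 301.4 and 288.6 CPM in the 3 RANKL+CSRM617 libraries. The groups stood far apart, and each RANKL+CSRM617 library lay above all RANKL libraries (244.7 to 259.7 CPM) and all RANKL II libraries (214.0 to 224.3 CPM). Spib rose by 5.98 on the log2 scale (SE 0.15, edgeR adjusted p = 5.6e-13), and the table-adjusted value was 6.20 (SE 0.14). Sox8 (chr17:25565892-25570686), the SRY-box factor of M cells, had 0 counts in all 3 ENR control libraries and 682 in RANKL+CSRM617, at 21.6, 22.5 and 18.6 CPM. Against a floor of 3 counts over the control group it was at least 120-fold higher.

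Relb, the NF-kB subunit of the slower arm, rose by 2.88 (SE 0.09) and Esrrg, an orphan nuclear receptor, by 2.75 (SE 0.34), with table-adjusted values of 2.97 and 2.74. Atoh8, a bHLH factor reported to restrain M cell numbers, had a log2 difference of -1.50 and a table-adjusted value of 0.85, so its direction depended on the fit. Of the 5 transcription factors on the list, 4 were called higher in both fits and none lower, beside 4.63% of all genes called higher in both fits, with a median of 2.88 over the list and 2.97 after table adjustment. This list and the others were drawn up with earlier results of these data known, so their counts describe the lists and are not independent evidence of a direction.

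Early M cell genes rose with the transcription factors. Ccl20 (chr1:83116766-83119167), the chemokine that draws B cells and dendritic cells to follicle epithelium, was at 2.09, 0.792 and 1.13 CPM in ENR control and at 111.1, 115.3 and 112.3 CPM in RANKL+CSRM617. All 3 RANKL+CSRM617 values lay far above the controls and below the 3 RANKL II values of 136.5 to 145.1 CPM. Ccl20 rose by 6.44 (SE 0.16, edgeR adjusted p = 7.7e-13; table-adjusted 6.01). Anxa5, a phospholipid-binding annexin, rose by 5.50, Cxcl16, a transmembrane chemokine, by 4.46, Ccl9, a chemokine of follicle epithelium, by 4.25, Gjb2, a gap junction protein, by 3.80 and Marcksl1, a MARCKS-like protein, by 2.29.

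Tnfaip2, a membrane-remodelling factor, was at 1.54, under the 4-fold limit, and reached 2.45 after table adjustment. Tnfrsf11b, the RANKL decoy receptor osteoprotegerin, and Icam2 had too few counts to be tested. In all, 6 of the 7 tested early genes were called higher and none lower, with a median of 4.25. After table adjustment 7 of 7 were called higher, with a median of 3.94. Over all genes the share called higher was 5.95%, and 5.88% after table adjustment.

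The late M cell receptor had few counts. Gp2 (chr7:119442537-119459285), which binds bacterial fimbriae, had 0 counts in ENR control and 24 counts in RANKL+CSRM617, at 0.786, 0.763 and 0.663 CPM. That is at least 4.21-fold higher than a floor of 3 counts, and too few counts for the 6-library test. In the table-adjusted fit Gp2 was called higher. All 3 RANKL II libraries (1.75 to 2.38 CPM) and all 3 RANKL libraries (2.11 to 2.75 CPM) lay above the 3 RANKL+CSRM617 libraries. Within table B, Gp2 was lower in RANKL+CSRM617 than in RANKL II by a log2 difference of -1.56 (edgeR adjusted p = 2.4e-05). Prnp and Ccl9 were also lower there, at -0.57 and -0.94, while Rac2 and Serpinb1a were higher, at 0.90 and 0.13.

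The other maturation genes mostly rose. Rac2, a small GTPase, rose by 7.90, Prnp, the prion protein and an uptake receptor for bacteria, by 6.17, Msln, mesothelin, by 4.76 and Serpinb1a, a protease inhibitor, by 2.86. Aif1, an actin-binding protein, went from 3 counts over the controls to 107, a ratio of 18.8 (95% counting interval 6.26 to 92.5). Ctsh, a cathepsin, Pglyrp1, a peptidoglycan-binding protein, and Clu, clusterin, were at 1.56, 1.48 and 0.70, each under the 4-fold limit in both fits. Of 8 genes tested, 5 were called higher, beside 5.95% of all genes, and none lower, with a median of 3.48. Of 9 in the table-adjusted fit 6 were called higher, beside 5.88% of all genes. Their median was 4.29, or 2.15 with Gp2 at its bound. C5ar1, a complement receptor of M cells, had 0 counts in all 6 libraries, and Scg5 was too low to test.

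**Figure D1:**
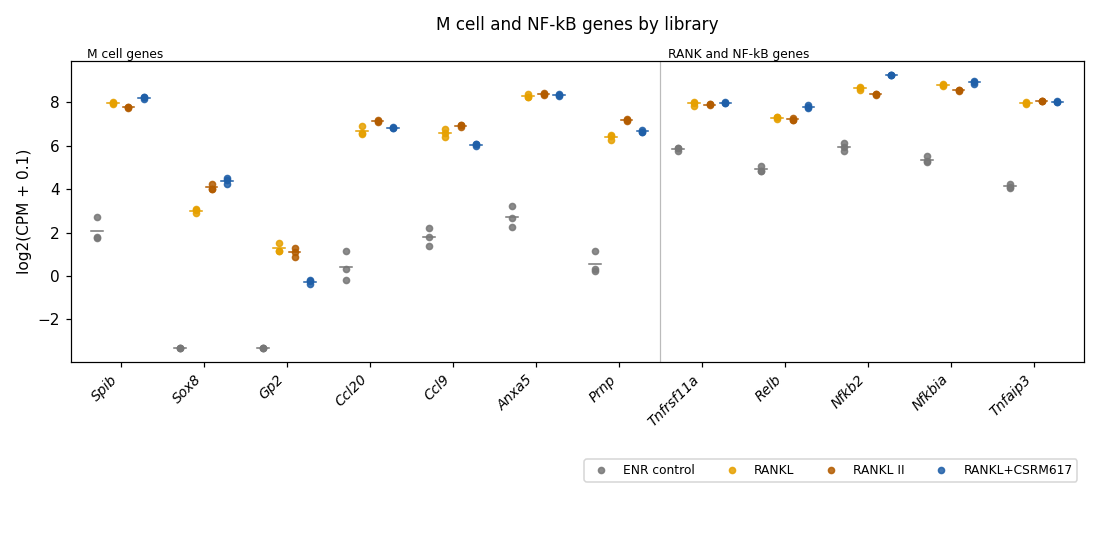
M cell and NF-kB genes in each library, as log2(CPM + 0.1) on the y axis, with 1 point per library, a bar at the mean of each group of 3, and the 4 groups in 4 colours. For each gene the 3 ENR control points lie below the RANKL+CSRM617 points, and for Gp2 the RANKL+CSRM617 points lie between ENR control and both RANKL groups.

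The receptor, inhibitors and subunits of the RANK pathway rose in part. Tnfrsf11a, which encodes RANK itself, was at 59.9, 53.7 and 58.6 CPM in ENR control and at 254.4, 253.4 and 256.9 CPM in RANKL+CSRM617, a rise of 2.14 (SE 0.07; table-adjusted 2.21). Nfkb2 was at 61.4, 53.7 and 70.6 CPM in ENR control and at 619.4, 610.9 and 608.8 CPM in RANKL+CSRM617. The 3 RANKL+CSRM617 values of Nfkb2 lay above every library of the other 3 groups, RANKL at 386.1 to 414.1 CPM included. It rose by 3.31 (SE 0.09, edgeR adjusted p = 1.9e-12; table-adjusted 3.61).

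Regulators of NF-kB, feedback inhibitors included, were among the larger rises of the pathway. Nfkbie rose by 4.37, Tnfaip3, which encodes the deubiquitinase A20, by 3.89, Nfkbia, which encodes IkB alpha, by 3.57, Birc3, a ubiquitin ligase, by 3.40, Bcl3, a nuclear IkB protein, by 2.84 and Tnip1, an A20 partner, by 2.65. Table-adjusted values were 4.38, 3.80, 3.81, 2.28, 3.34 and 2.39 in that order. The upstream kinases and adaptors had smaller differences, with Map3k14, the kinase of the slower arm, at 1.18, Chuk at 0.97, Ikbkb at 0.23, Traf2 at 1.77, Traf3 at 1.25 and Traf6 at -0.05. Among the subunits of the classical arm, Nfkb1 was at 0.86, Rela at 0.26 and Rel at -0.39. Of 22 pathway genes tested, 9 were called higher, beside 5.95% of all genes, and none lower, with a median of 1.23. Of 23 after table adjustment 10 were called higher, beside 5.88% of all genes, with a median of 1.70.

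The start regions of 6 of the genes that rose are shown because they hold letters of the NF-kB type. The search was for GGG followed, after any 2 bases, by TTTCC (the first pattern) or by TTCCC (the second), on both strands of 300-base windows around annotated starts (RefSeq, GRCm38.p6), and matches to the 2 patterns can overlap. Of the 47 M cell and RANK pathway genes looked up, 35 had a window, and 12 of these 35 genes (34.3%) held a match, beside 1007 of 27025 genes (3.73%) overall. The match did not separate called from other members: 7 of 18 genes called higher held one (38.9%), and 5 of 13 tested and not called (38.5%). Over all 32851 windows the shares were 1.63% for the first pattern, 1.75% for the second and 3.24% for either. Below, the 120 bases before each start are given 5′ to 3′ on the gene's strand, with matches in capitals, at chr19:46304617-46304736 (Nfkb2), chr12:55492648-55492767 (Nfkbia), chr10:19015411-19015530 (Tnfaip3), chr11:54962941-54963060 (Tnip1), chr1:83116646-83116765 (Ccl20) and chr11:83578637-83578756 (Ccl9).
Nfkb2: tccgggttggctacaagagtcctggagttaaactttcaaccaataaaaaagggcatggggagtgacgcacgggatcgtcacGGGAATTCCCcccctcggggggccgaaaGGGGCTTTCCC
Nfkbia: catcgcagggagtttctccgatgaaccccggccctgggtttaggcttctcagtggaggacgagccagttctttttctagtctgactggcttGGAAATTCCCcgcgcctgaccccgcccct
Tnfaip3: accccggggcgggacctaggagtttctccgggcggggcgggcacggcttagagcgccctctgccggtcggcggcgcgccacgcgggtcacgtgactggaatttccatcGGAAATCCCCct
Tnip1: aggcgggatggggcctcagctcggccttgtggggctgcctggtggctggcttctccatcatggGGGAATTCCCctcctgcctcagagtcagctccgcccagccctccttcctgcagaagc
Ccl20: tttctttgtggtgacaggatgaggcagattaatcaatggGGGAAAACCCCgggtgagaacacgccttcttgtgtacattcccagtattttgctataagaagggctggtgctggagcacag
Ccl9: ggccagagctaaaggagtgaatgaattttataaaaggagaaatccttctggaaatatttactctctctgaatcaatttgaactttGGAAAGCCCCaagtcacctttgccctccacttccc
Nfkb2 holds 2 separate runs, the second of which is 2 overlapping matches, and in Nfkbia, Tnfaip3, Tnip1, Ccl20 and Ccl9 there is 1 run each.

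Chemokine genes outside the M cell lists split. Ccl6 rose by 3.57 and Cxcl10, an interferon-induced chemokine, by 2.22, and in the table-adjusted fit both were also called, at 3.12 and 4.19. Ccl28, which attracts IgA plasma cells, fell by 2.50 (SE 0.12), from 60.3 CPM in ENR control to 10.8 CPM in RANKL+CSRM617 (table-adjusted -2.99). Over the 10 tested chemokine and cytokine genes, which include Ccl20, Ccl9 and Cxcl16, 5 were called higher and 1 lower. Over all genes the shares called higher and lower were 5.95% and 3.64%.

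ONECUT2, a homeodomain transcription factor, is the known target of CSRM617, and the level of its mRNA gives no measure of protein activity. Onecut2 was at 191.2, 188.5 and 205.1 CPM in ENR control and at 399.6, 402.2 and 430.7 CPM in RANKL+CSRM617. All 3 RANKL+CSRM617 values lay above the controls, and all lay under the 535.3 to 545.0 CPM of RANKL II. The log2 difference was 1.07 (SE 0.07, edgeR adjusted p = 1.0e-08; table-adjusted 0.79), below the 4-fold limit. Onecut3 fell by 2.81, from 10.6 to 1.55 CPM, and was not called after table adjustment (-1.74). Onecut1 was too low to test. Of the other intestinal transcription factors, Hnf4g was at 1.41, Hnf4a at 0.68, Cdx2 at -0.09 and Gata4 at 0.46, and of the 19 tested none was called higher and 1, Onecut3, lower.

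Of 18 tested genes of fat absorption, 5 rose in RANKL+CSRM617 against ENR control, among them Apoa4 and Apoa1, apolipoproteins of the chylomicron, the particle that carries dietary fat to lymph. Apoa4 (chr9:46240696-46243459) was at 150.7, 102.8 and 172.3 CPM in ENR control and at 4624, 4613 and 4204 CPM in RANKL+CSRM617. The 2 groups did not overlap, and RANKL (811.8 to 1276 CPM) and RANKL II (1159 to 1210 CPM) both lay between them. Apoa4 rose by 4.98 (SE 0.16, edgeR adjusted p = 9.2e-11; table-adjusted 4.80). Apoa1 rose by 3.87, Apoc3 by 3.20, and Creb3l3, a transcription factor of triglyceride metabolism, by 3.00, with table-adjusted values of 3.27, 2.79 and 3.15. Npc1l1, the cholesterol importer, rose by 2.29 and was not called after table adjustment (1.23).

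Carriers of fatty acid inside the cell did not pass the 4-fold limit. Fabp1 was at 24.3, 14.5 and 18.6 CPM in ENR control and at 31.8, 29.8 and 29.8 CPM in RANKL+CSRM617, a log2 difference of 0.68 (SE 0.14; table-adjusted 0.45, edgeR adjusted p = 0.27). Both RANKL groups lay below the ENR controls for Fabp1, at 3.995 to 7.60 CPM in RANKL and 5.00 to 9.68 CPM in RANKL II. Fabp2 was at 0.31, Mttp, the microsomal lipid transfer protein, at 1.49, Apob at -0.29 and Dgat1, which makes triglyceride, at 1.08. Over the 18 tested lipid absorption genes, 5 were called higher, beside 5.95% of all genes, and none lower, with a median of 0.78. After table adjustment 4 of 19 were called higher, beside 5.88% of all genes, with a median of 0.45.

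Among brush border genes, Alpi, the intestinal alkaline phosphatase, was at 65.4, 48.5 and 69.7 CPM in ENR control and at 515.9, 523.3 and 511.2 CPM in RANKL+CSRM617, and rose by 3.08 (SE 0.11; table-adjusted 3.15). Slc2a2, a glucose transporter, rose by 3.24 and Ace, angiotensin converting enzyme, by 2.35, both also called after table adjustment (2.26 and 2.31). Enpep, Mme and Mep1a, which are membrane peptidases, rose by 2.90, 2.41 and 2.08 and were not called after it (1.72, 0.72 and 1.96). Dpp4, another membrane peptidase, fell by 2.70 and Slc6a19, the neutral amino acid transporter, by 2.37, and both were called lower in each fit (-2.97 and -2.22). Sis, sucrase-isomaltase, was at 1.60 and Lct, lactase, at -1.32, neither past the limit. Over the 21 genes, 6 were called higher and 2 lower, beside 5.95% and 3.64% of all genes, with a median of 1.14. After table adjustment 4 were called higher and 2 lower, beside 5.88% and 1.66% of all genes, with a median of 0.92.

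Krt20, a keratin of differentiated villus cells, was at 13.9, 8.97 and 18.6 CPM in ENR control and at 317.5, 311.3 and 298.5 CPM in RANKL+CSRM617. It rose by 4.54 (table-adjusted 4.43), with the RANKL and RANKL II libraries in between at 73.6 to 90.0 CPM. The other general epithelial genes had smaller differences in both directions. Epcam was at 0.34, Cdh1, E-cadherin, at 0.46, Krt19 at 1.29 and Vil1, villin, at 0.77, while Krt18 was at -0.79 (table-adjusted -0.67). All 8 genes of that list were tested, with Krt20 the 1 call. With no limit on the fold, 6 were higher and 2 lower at an edgeR adjusted p under 0.05. By that rule 33.3% of all genes tested were higher.

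Genes of vitamin A handling and of gut regions were mixed. Adh1, an alcohol dehydrogenase that oxidises retinol, rose by 2.85 and Bco1, which cleaves beta-carotene, by 2.22, with table-adjusted values of 2.10 and 2.27. Rbp2, the retinol carrier of enterocytes, was at 0.64, with RANKL+CSRM617 at 42.2 to 46.8 CPM, ENR control at 22.96 to 35.1 CPM and RANKL II at 6.58 to 7.04 CPM. In the distal list, Cubn, the cobalamin uptake receptor cubilin, rose by 8.23 and Slc51a by 3.61, with table-adjusted values of 8.52 and 2.63. Slc51b, which with Slc51a forms the basolateral bile acid exporter, had 3 counts in ENR control and 236 in RANKL+CSRM617, a ratio of 41.4 (interval 14.0 to 202). In all, 4 of 6 distal genes tested were called higher and none lower, beside 5.95% and 3.64% of all genes. With no limit on the fold, 4 distal genes were higher and 2 lower at an edgeR adjusted p under 0.05. In the proximal list 3 of 10 were called higher and none lower, among them Adh6a at 2.73 and Slc40a1, the iron exporter ferroportin, at 2.02. With no limit on the fold, 6 proximal genes were higher and 2 lower at an edgeR adjusted p under 0.05. By that rule 33.3% of all genes tested were higher, a share to be read beside both lists. Without ENR control replicate 3, Slc40a1 was at 1.97 and no longer called.

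**Figure D2:**
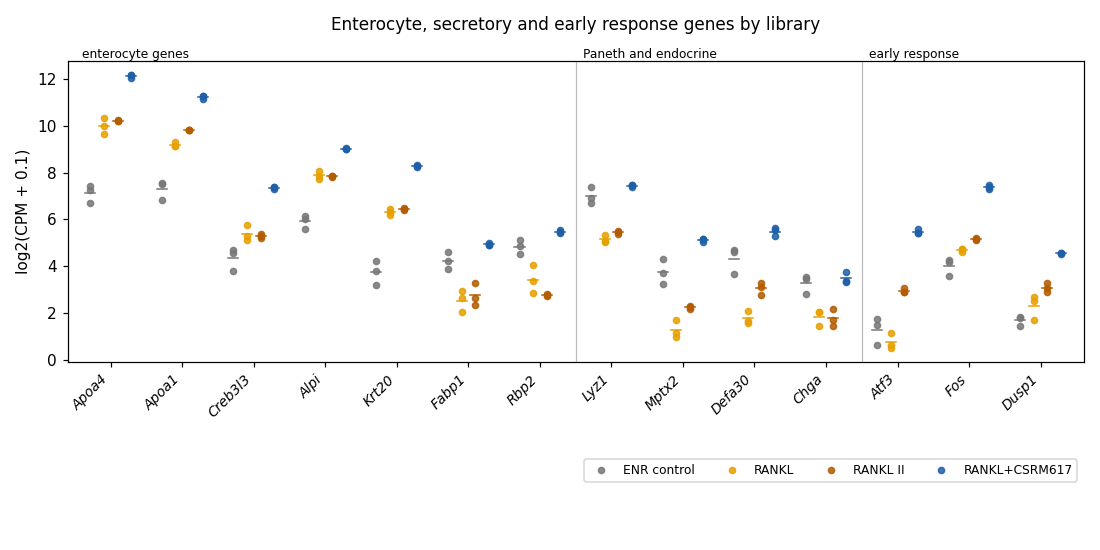
Enterocyte, Paneth, enteroendocrine and early response genes in each library, as log2(CPM + 0.1) on the y axis, with 1 point per library, a bar at the mean of each group of 3, and the 4 groups in 4 colours. For Apoa4, Alpi, Krt20, Atf3 and Fos the RANKL+CSRM617 points lie above all other groups, and for Fabp1, Lyz1 and Mptx2 both RANKL groups lie below the ENR control points.

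Secretory lineages showed no common direction. In the Paneth list, genes of the antimicrobial cells at the crypt base, Lyz1, lysozyme, was at 122.2, 102.6 and 165.3 CPM in ENR control and at 179.6, 167.2 and 175.6 CPM in RANKL+CSRM617. The RANKL+CSRM617 values lay just above the highest control, while RANKL (32.4 to 40.8 CPM) and RANKL II (41.7 to 45.7 CPM) lay below the lowest. The log2 difference of Lyz1 was 0.42 (SE 0.13, edgeR adjusted p = 0.012) and 0.15 after table adjustment (edgeR adjusted p = 0.55). Of 13 Paneth genes tested none was called higher and 1, Habp2, lower (-2.13, and -1.20 after table adjustment), beside 3.64% of all genes called lower. The call of Habp2 ended without ENR control replicate 3 (-1.998). Without ENR control replicate 2, the calls were 2, with Pla2g2a, a phospholipase, at -2.07 in place of -1.90. The list median was 0.42, and -0.04 over 12 genes after table adjustment.

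Goblet cells secrete the mucus layer. Of their genes, Guca2a, guanylin, rose by 4.98, Clca1 by 4.13, Zg16, a lectin of mucus, by 3.87 and Fcgbp, a mucin-linked protein, by 2.18. Table-adjusted values were 3.48, 3.36, 3.58 and 2.02. Muc2, the main secreted mucin, was at 0.62, Tff3 at 0.14, and the goblet cell regulators Spdef and Atoh1 at -1.88 and -1.31, none past the limit. Over the 13 tested goblet genes the 4 were the only calls, beside 5.95% of all genes called higher. The list median was 0.17, and -0.15 after table adjustment, so its sign depended on the fit.

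Among enteroendocrine genes, Chga, chromogranin A, was at 0.21 (edgeR adjusted p = 0.34) and Sct, secretin, had 3 counts against 63, a ratio of 11.1 (interval 3.61 to 55.1). Neurog3, the factor that starts the endocrine lineage, fell by 2.27, from 10.0 to 11.3 CPM in ENR control to 1.57 to 2.40 CPM in RANKL+CSRM617. RANKL II lay at 1.98 to 2.26 CPM and RANKL at 11.6 to 13.7 CPM, and the table-adjusted value of Neurog3 was 0.34. What set RANKL II apart from RANKL was not tested. Insm1, another endocrine factor, fell by 2.26, with -0.28 after table adjustment. In the tuft list none of 9 tested genes was called, and Dclk1 was at 1.05.

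Antimicrobial genes of the villus rose in part. Nos2, inducible nitric oxide synthase, rose by 5.33, Reg3g, a bactericidal lectin, by 5.00, and its relatives Reg3b and Reg3a by 3.06 and 2.02, with table-adjusted values of 6.41, 4.05, 3.21 and 3.08. Pigr, the receptor that carries IgA to the lumen, was at 2100, 2357 and 2101 CPM in ENR control and at 533.2, 528.1 and 507.4 CPM in RANKL+CSRM617. It fell by 2.08 (SE 0.07), a call that was not made after table adjustment (-1.39). Of 9 tested genes 4 were called higher and 1 lower, beside 5.95% and 3.64% of all genes.

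Crypt stem cell genes were lower in RANKL+CSRM617, and how many fell depended on the fit. Lgr5 (chr10:115450311-115587780), the R-spondin receptor that marks crypt base stem cells, was at 404.7, 453.7 and 402.9 CPM in ENR control and at 5.73, 6.95 and 6.71 CPM in RANKL+CSRM617. It fell by 6.02 on the log2 scale (SE 0.10, edgeR adjusted p = 4.1e-14), and by 3.82 (SE 0.13) after table adjustment. RANKL lay at 49.9 to 52.1 CPM and RANKL II at 10.8 to 11.5 CPM, so the libraries of equal labelled treatment differed by -2.17 on the log2 scale. One Lgr5 copy in these mice carries the cassette, and the counts do not tell the copies apart.

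Smoc2, a matrix protein of stem cells, was at 568.3, 576.8 and 578.4 CPM in ENR control and at 57.5, 55.4 and 54.1 CPM in RANKL+CSRM617, and fell by 3.38 (table-adjusted -2.24). Olfm4 was at 526.1, 860.3 and 588.6 CPM in ENR control and at 34.8, 35.7 and 36.5 CPM in RANKL+CSRM617, a fall of 4.22. RANKL lay at 248.5 to 469.1 CPM and RANKL II at 17.4 to 22.3 CPM, and the table-adjusted value of Olfm4 was 0.07 (SE 0.42, edgeR adjusted p = 0.9). Sox9 and Rgmb fell by 2.10 and 2.09 and were not called after table adjustment (-0.85 and -1.33). Of 17 stem cell genes 5 were called lower and none higher, beside 3.64% of all genes called lower, with a median of -1.32. After table adjustment 2, Lgr5 and Smoc2, were called lower, beside 1.66% of all genes, with a median of -0.63.

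Genes of Wnt signalling, which maintains the crypt, followed a like pattern. Axin2, a feedback inhibitor, was at -1.96, Myc at -1.52, Rnf43, which removes Wnt receptors, at -1.32 and Ccnd1, cyclin D1, at 0.62, with table-adjusted values of -0.63, -0.90, -0.99 and 0.55. Of 10 tested genes 2, Lgr5 and Nkd1, were called lower, beside 3.64% of all genes, and only Lgr5 in both fits. Without ENR control replicate 2, Axin2 also passed the limit, at -2.01.

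In the list median, cell cycle genes were lower in RANKL+CSRM617 than in ENR control by about as much as in RANKL II against RANKL, while single genes differed. Mki67, a marker of dividing cells, was at 615.3, 531.5 and 584.3 CPM in ENR control and at 323.2, 331.7 and 319.0 CPM in RANKL+CSRM617, a log2 difference of -0.84 (SE 0.07). RANKL lay at 471.9 to 572.7 CPM and RANKL II at 135.3 to 142.0 CPM, and after table adjustment the value of Mki67 was 1.08 (SE 0.09). Mcm5, Rrm2, Mcm6, Mcm3 and Mcm4, genes of DNA replication, fell by 2.56, 2.48, 2.40, 2.12 and 2.04, with table-adjusted values of -0.77, -0.57, -1.22, -0.65 and -0.68. In RANKL II against RANKL, Mki67 was at -1.90, Mcm5 at -1.76, Rrm2 at -1.89, Mcm6 at -1.16 and Mcm4 at -1.33. Over all genes 3.64% were called lower in the 6-library fit. Of 22 proliferation genes 5 were called lower with a median of -1.43, and none after table adjustment with a median of 0.12. Without ENR control replicate 2 the calls were 3, with Mcm4 at -1.94, and without RANKL+CSRM617 replicate 1 Mcm4 was just under the limit. The same list had a median of -1.55 in RANKL II against RANKL and of -0.48 in RANKL against ENR control. The 6 libraries cannot tell treatment from table for these genes.

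**Figure D3:**
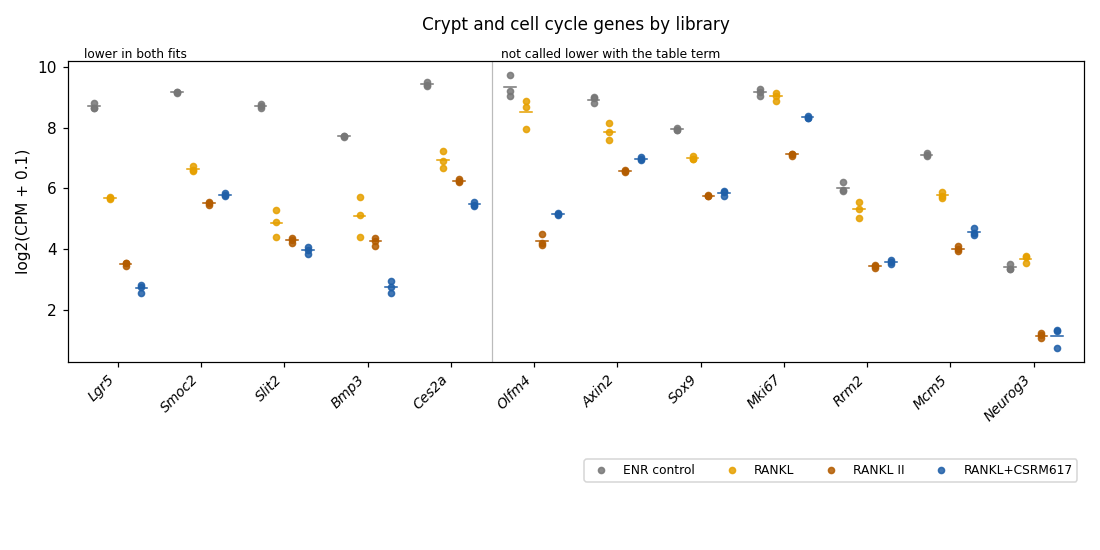
Crypt, xenobiotic, cell cycle and endocrine genes in each library, as log2(CPM + 0.1) on the y axis, with 1 point per library, a bar at the mean of each group of 3, and the 4 groups in 4 colours. On the right, for genes not called lower after table adjustment, RANKL II and RANKL+CSRM617 both lie below RANKL, and on the left Lgr5, Smoc2, Slit2, Bmp3 and Ces2a are low in all 3 RANKL-treated groups.

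The medians of the stress and metabolism lists differed, and all lay under the 4-fold limit. In the p53 list, Cdkn1a, the cell cycle inhibitor p21, rose by 2.99, Fas, a death receptor, by 2.81 and Pmaip1, which promotes apoptosis, by 2.75, each called in both fits (2.99, 2.78 and 2.17), and Plk2 by 2.25 in the 6-library fit alone. Those 4 were the calls among 17 genes, beside 5.95% of all genes called higher. The list median was 0.77, and 1.275 after table adjustment. All 18 cholesterol synthesis genes were higher with an edgeR adjusted p under 0.05 and no limit on the fold, as were 33.3% of all genes tested. Their median was 1.21 (0.97 after table adjustment). Of the 18, 1, Mvd, passed the 4-fold limit at 2.03, beside 5.95% of all genes. Mvd was under the limit without ENR control replicate 1, at 1.97. Of 12 hypoxia and glycolysis genes 3 were called higher, Adm at 4.02, Egln3 at 2.71 and Pfkfb3 at 2.71, also after table adjustment (3.04, 2.63 and 2.26).

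Of 11 targets of NRF2, the oxidative stress factor, 4 were called higher, beside 5.95% of all genes. Their median was 0.72 (0.88 after table adjustment). Srxn1 rose by 3.34 and Hmox1, heme oxygenase, by 2.88, both called in each fit (2.70 and 3.60), while Gclc and Osgin1 rose by 2.31 and 2.06 in the 6-library fit alone. Without ENR control replicate 2, Osgin1 was at 1.88 and not called. Cyp1a1, a drug-metabolising enzyme induced through the aryl hydrocarbon receptor, had 2 counts in ENR control and 507 in RANKL+CSRM617, a ratio of 133 (interval 36.8 to 1110.0), at 15.3, 16.2 and 14.9 CPM against 4.39 to 6.50 CPM in RANKL. Ces2a, a carboxylesterase, was at 724.6, 675.2 and 669.8 CPM in ENR control and at 44.0, 46.5 and 42.9 CPM in RANKL+CSRM617, and fell by 3.97 (table-adjusted -3.27). Among interferon response genes, 5 of 14 were called higher, beside 5.95% of all genes, with a median of 1.54 (1.33 after table adjustment). The calls included Isg15 at 2.78 and Rsad2 at 2.46, while Irf7 was at 0.66. The summed level of the interferon list ran from 81.5 to 216 CPM over the ENR controls and from 348 to 353 CPM in RANKL+CSRM617, and without ENR control replicate 2 or replicate 3 the calls were 3. None of the 8 tested MHC class I genes and none of the 11 tested genes of fatty acid oxidation was called.

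The largest rises that both fits called were from genes absent or nearly absent in ENR control. Ubd, a ubiquitin-like modifier induced by inflammatory signals, had 0 counts in ENR control and 1827 in RANKL+CSRM617, at least 321-fold higher. Dscam, a neuronal adhesion molecule, was at least 273-fold higher, Col4a1, a basement membrane collagen, at least 132-fold, Adamts13 at least 102-fold and Zfp469 at least 100-fold. Cd74, the invariant chain of MHC class II, had 1 count in ENR control against 3009, and was at 100.1, 90.5 and 86.9 CPM in RANKL+CSRM617. The class II genes H2-Aa, H2-Ab1 and H2-Eb1 had too few counts to be tested beside it. Adgrd1, an adhesion receptor, Pglyrp2, a peptidoglycan amidase, and H2-M2 had 3, 3 and 2 counts in ENR control against 17674, 9875 and 4941.

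The largest falls that both fits called were Prelp, a matrix proteoglycan, with 329 counts in ENR control and 1 in RANKL+CSRM617, and Gkn3, a gastrokine, with 234 and 2. Rgcc fell by 6.37, Nrp1, a coreceptor of semaphorins, by 5.39, Sox12 by 5.36, Myh7 by 5.12 and Slc43a1 by 4.69, each with 8 to 14 counts left in RANKL+CSRM617. Table-adjusted values were -3.04, -4.52, -4.76, -5.45 and -2.16 in that order. In RANKL II against RANKL, Rgcc was at -3.31 and Slc43a1 at -2.51, and Nrp1, Sox12 and Myh7 were too low to test. Bmp3, a BMP family ligand, was at 211.2, 210.8 and 209.2 CPM in ENR control and at 5.73, 6.61 and 7.62 CPM in RANKL+CSRM617. It fell by 4.98 (SE 0.10; table-adjusted -4.07). Slit2, a secreted guidance ligand, was at 418.6, 405.6 and 440.1 CPM in ENR control and at 14.3, 16.9 and 15.7 CPM in RANKL+CSRM617, and fell by 4.76 (table-adjusted -4.13).

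**Figure D4:**
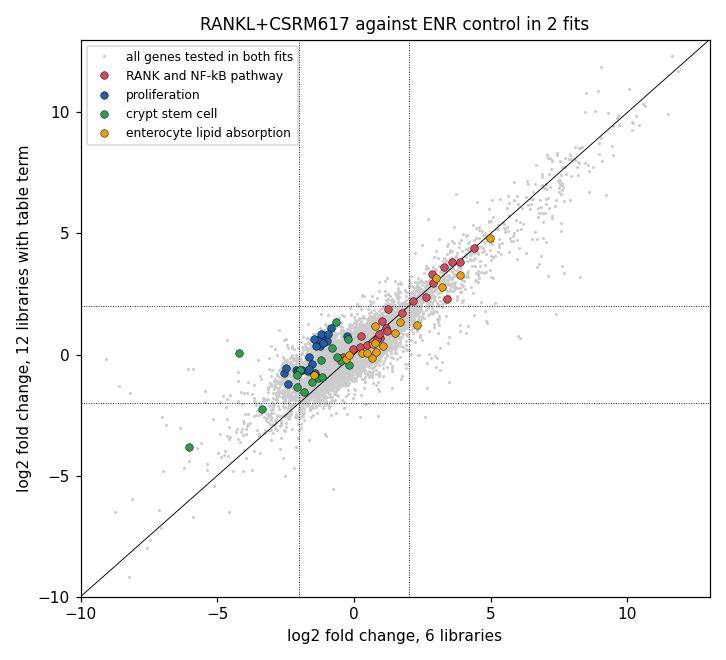
Log2 fold change of RANKL+CSRM617 against ENR control from the 6 libraries (x axis) and from the 12 libraries with the table term (y axis), with grey points for all genes tested in both, coloured points for 4 gene lists, a line of equal values and dotted lines at 4-fold. RANK pathway genes have a median of 1.23 on the x axis and 1.70 on the y axis, and proliferation genes lie above the line of equal values, with a median of -1.43 on the x axis and 0.12 on the y axis.

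Genes were next set beside the 2 comparisons that share libraries with this one: RANKL against ENR control, which uses the same controls, and RANKL+CSRM617 against RANKL II, which uses the same inhibitor libraries. Because of the shared libraries no agreement is counted, and the values are descriptions of genes selected by their size. By the 4-fold rule 4.58% of genes were called higher and 1.55% lower in RANKL against ENR control. Some genes rose in RANKL+CSRM617 with less than a 2-fold difference in RANKL. Atf3, a stress-induced transcription factor, was at 3.23, 1.45 and 2.72 CPM in ENR control and at 47.4, 42.8 and 42.2 CPM in RANKL+CSRM617, against 1.32 to 2.11 CPM in RANKL and 7.29 to 8.25 CPM in RANKL II. Its log2 differences were 4.22 against ENR control, 2.02 after table adjustment, -0.50 for RANKL against ENR control and 2.45 against RANKL II.

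Fos, an immediate-early factor, was at 19.2, 11.7 and 17.9 CPM in ENR control, at 24.1 to 37.0 CPM over the 6 RANKL and RANKL II libraries, and at 177.5, 165.5 and 157.7 CPM in RANKL+CSRM617. The RANKL+CSRM617 libraries were thus the high ones of the series. Fos had log2 differences of 3.39 and 2.94 after table adjustment, and Dusp1, an immediate-early phosphatase, of 2.91 and 2.23. Zfp462, Akr1c19, Trim30d, Enpep and the small vault RNA Vaultrc5 also met this selection, and none of the 5 was called after table adjustment (1.38 to 1.78).

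On the low side, the same selection named Rbms3, an RNA-binding protein, at -3.89, and after table adjustment at -2.86, as the 1 gene of 8 called lower in both fits. Fam234a was at 66.8 to 75.1 CPM in ENR control and 56.5 to 62.5 CPM in RANKL, but at 0.746 to 1.85 CPM over the 6 libraries of table B, RANKL II included. Zfp2 had 137 counts in ENR control and 0 in every library of table B. Olfm4, Fam49a, Ltbp3, Mboat2 and Foxred2 were the others, with table-adjusted values of 0.07, -1.12, -1.82, -1.42 and -0.14.

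Other genes changed at least 4-fold in RANKL against ENR control and had table-adjusted differences from ENR control between -0.39 and 0.43 in RANKL+CSRM617. Timp3, an inhibitor of matrix proteases, was at 1.14, 1.58 and 2.26 CPM in ENR control, at 10.5 to 18.2 CPM in RANKL, at 8.94 to 10.0 CPM in RANKL II and at 1.57, 0.848 and 1.41 CPM in RANKL+CSRM617. The RANKL+CSRM617 and ENR control values of Timp3 overlapped (log2 difference -0.38, edgeR adjusted p = 0.37). Depdc1a, a gene of mitosis, was at 1.36 to 3.03 CPM in ENR control, 13.8 to 15.4 CPM in RANKL, 11.2 to 13.4 CPM in RANKL II and 1.69 to 2.98 CPM in RANKL+CSRM617. Ptges, prostaglandin E synthase, had 5 counts in ENR control and 9 in RANKL+CSRM617, too few for the 6-library test, with 1.52 CPM in RANKL.

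In the other direction, Mptx2, a pentraxin of Paneth cells, was at 13.1, 9.23 and 19.7 CPM in ENR control, at 1.89 to 3.20 CPM in RANKL, at 4.42 to 4.84 CPM in RANKL II and at 35.5, 32.8 and 35.5 CPM in RANKL+CSRM617. Its RANKL+CSRM617 values lay above all ENR control values, with a log2 difference of 1.36 from the 6 libraries and 0.43 after table adjustment, under the 4-fold limit in both. The alpha-defensins Defa30 and Defa35 had log2 differences of -2.56 and -2.52 for RANKL against ENR control, of 1.14 and 1.11 for RANKL+CSRM617 against ENR control, and of -0.13 and -0.25 after table adjustment. Defensin genes are near-identical copies, so the split of reads among them is uncertain. Trim72 and Rn7s1 completed the 8 genes, with table-adjusted values of -0.25 and -0.39.

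**Figure D5:**
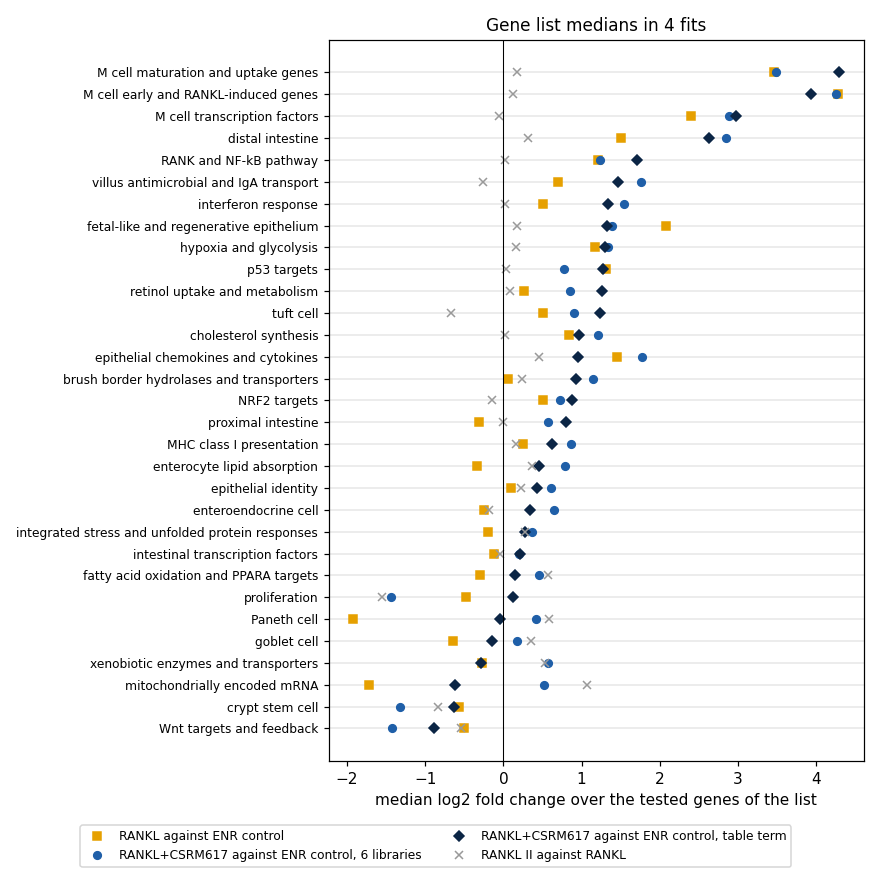
Median log2 fold change (x axis) over the tested genes of each gene list with at least 5 of them, in 4 fits marked by symbol and colour, with lists ordered by the table-adjusted median. The table-adjusted medians of the 3 M cell lists are 3.94 for early genes, 2.97 for transcription factors and 4.29 for maturation genes (2.15 with Gp2 at its bound), and the proliferation median of -1.43 lies beside the median of -1.55 for RANKL II against RANKL.

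The organoids were checked for other cells. Immune marker genes summed to 5.94 to 7.02 CPM in ENR control and 11.8 to 12.8 CPM in RANKL+CSRM617, and Cd68, at 5.29 and 8.26 CPM, made up most of it. Among them, Adgre1, a macrophage marker, had 0 counts in all 6 libraries, Ptprc, the marker of all blood cells, had 8 and 4 counts in the 2 groups, and 1 gene of the list could be tested in the 6 libraries and was not called. In the table-adjusted fit 2 were tested, with a median of 1.80, and 1 was called higher: Cd3e, a T cell receptor subunit, at 3.11. Cd3e had 1 count in ENR control and 46 in RANKL+CSRM617, a ratio of 24.2 (exact 95% interval 4.14 to 977.0, for counting error only). Stromal and endothelial markers summed to 6.07 to 7.22 and 13.8 to 15.6 CPM, with Col1a2, Col3a1, Dcn, Cdh5 and Kdr at 0 counts in all 6 libraries. Pdgfrb, the main contributor, was at 3.57 and 12.9 CPM, under the 4-fold limit. Mitochondrial mRNA took 5.42% to 7.95% of counts in ENR control and 8.59% to 11.02% in RANKL+CSRM617, and none of its 7 tested genes was called.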

How the data were processed

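The authors deposited 2 tables of raw counts per gene symbol, made per the submitters' processing notes with STAR and HTSeq 0.13.5 on mm10 (GRCm38), with DESeq2 1.34.0 also named. The sources used here name neither the annotation nor the strand setting, so reads of overlapping and antisense genes may be mixed. Libraries were rRNA-depleted and read as 42-bp pairs, per the labels' protocols. The authors also deposited normalized tables, which were not used. Members, lists and naming rules were chosen with earlier results of these data known.

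The tables were joined by symbol (55335 entries, of which 107 repeated symbols were kept apart), and coordinates and identifiers came from GENCODE M21. The 6 libraries were fitted with edgeR 4.0.16 in R 4.3.3 (quasi-likelihood, robust, TMM, filterByExpr) with Benjamini-Hochberg adjustment over all genes tested. The call was an adjusted p under 0.05 with a fold of at least 4. The 12-library fit added a table term. Fits were tested on simulated data in which RANKL and RANKL II differed by table alone. That simulation could not test whether this holds in the real libraries. For a group at 0 counts the bound is set against 3 counts over the group. Named genes were 28 fixed genes, up to 4 per list by smallest p, the 10 largest rises and falls called in both fits, and 8 genes per direction or in all by their values in RANKL against ENR control. The text also gives values of other list members, which the alternatives followed only through the list counts. Alternatives covered scaling, filters, DESeq2 1.42.0, GC offsets, the fold threshold, the replicate block and leaving out each library.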

Additional observations from a re-analysis of the deposited data

How the results depend on the processing

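Large rises and falls numbered 812 and 497. RLE or upper-quartile factors, DESeq2, GC offsets, 12 libraries with no table term, and leaving out ribosomal RNA loci and mitochondrial genes kept both counts within 1.5 times, as did leaving out each library in turn (794 to 943 rises, 509 to 529 falls). With the table term there were 851 rises and 241 falls, of which 631 and 163 were shared with the 6-library calls. Without a filter on low counts there were 1433 and 802, with a minimum of 50 counts 505 and 261, because other numbers of genes were tested, and at a 2-fold threshold 1851 and 1825. Among 175 named genes tested, those that changed sign with the table term and were called in either fit, or had an adjusted p under 0.05 in both, were Olfm4 (0.0724), Mki67 (1.08) and Neurog3 (0.34). List members outside the named genes were not followed singly, among them Atoh8, whose sign also differed between the fits. The replicate numbers did not pair the libraries: the correlations of deviations for equal numbers were 0.079, -0.109 and -0.113. With the replicate block there were 810 rises and 494 falls, and with the replicate block and table term 850 and 233, with Olfm4 at 0.0584, Mki67 at 1.08 and Neurog3 at 0.33. Among the named genes, calls near the limit that 1 library decided were Mvd, Mcm4, Osgin1, Axin2, Pla2g2a, Slc40a1, Habp2, Zmat3 and Pdgfra. By GC content, the median log2 fold change ran from -0.20 to 0.09, and from -0.33 to 0.26 after table adjustment. Genes with 0 counts in ENR control have bounds only, and the fewer counts of ENR control make those bounds lower.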
